A study of Mus musculus with 4 samples.

Results

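The genes described here make cholesterol and fatty acids or control how a cell makes and moves them. They are 38 genes picked by name and matched by symbol in the count table, out of 27179 genes: 5 regulators of the SREBP transcription factors, 7 enzymes of the mevalonate pathway, 11 enzymes from squalene to cholesterol, 5 enzymes of fatty acid synthesis and elongation, 4 desaturases and 6 genes of sterol transport, esterification and the LXR receptors. All 38 were in the table, and 36 were among the 11172 genes with enough counts to be tested. Fads2 and Nr1h3 were not tested.

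RNA had been sequenced from CD4+Foxp3+ Treg (regulatory T) cells at steady state, a class of lymphocyte that restrains immune responses. C57BL/6 mice had supplied them from both spleen and peripheral lymph nodes, and 2 libraries are labelled WT and 2 P65KO. P65, encoded by Rela, is one of the NF-kappaB subunits that carry a transactivation domain, and per the design text the P65KO Treg cells lack it. The labels name no Cre driver or deletion strategy and give no age, and they do not say whether the replicates are separate mice. All P-values below therefore rest on the spread among 4 libraries, part of which may be technical. The test also draws the variance of each gene toward the trend over all genes tested. The comparison asks how the level of each gene differed between the P65KO and WT libraries.

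Cells sense cholesterol in the endoplasmic reticulum membrane. When sterol is scarce, SCAP carries the SREBP proteins to the Golgi, where proteases release the part that enters the nucleus and switches on target genes, and when sterol is plentiful the INSIG proteins hold SCAP back. SREBP2, encoded by Srebf2, is best known for driving cholesterol synthesis and SREBP1, encoded by Srebf1, for driving fatty acid synthesis, while the oxysterol-sensing LXR receptors switch on sterol export. In T cells these pathways supply membrane for growth and the isoprenoid chains that anchor small GTPases.

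SREBP proteins bind sterol regulatory elements in promoters, commonly beside a CCAAT box, so the 250 bases upstream of each gene start were read from RefSeq (GRCm38.p6) and searched on both strands. A window was found for 30 of the 38 genes and for 27025 genes in all. Windows of 4 genes that were higher in P65KO libraries are shown, since Hmgcs1 alone held the sterol element TCACNCCAC, Srebf2 and Cyp51 held a looser form of it, and Insig1 held neither but had a CACGTG E-box. Capitals mark matches, on either strand, to TCACNCCAC, the looser TCACCNCA, CCAAT or CACGTG.
Hmgcs1, chr13:119690101-119690350, plus strand: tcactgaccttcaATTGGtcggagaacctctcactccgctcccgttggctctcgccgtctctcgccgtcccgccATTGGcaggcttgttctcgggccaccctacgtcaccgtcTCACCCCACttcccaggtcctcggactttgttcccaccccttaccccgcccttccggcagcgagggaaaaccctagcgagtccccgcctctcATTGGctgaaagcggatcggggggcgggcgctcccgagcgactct
Insig1, chr5:28071162-28071411, plus strand: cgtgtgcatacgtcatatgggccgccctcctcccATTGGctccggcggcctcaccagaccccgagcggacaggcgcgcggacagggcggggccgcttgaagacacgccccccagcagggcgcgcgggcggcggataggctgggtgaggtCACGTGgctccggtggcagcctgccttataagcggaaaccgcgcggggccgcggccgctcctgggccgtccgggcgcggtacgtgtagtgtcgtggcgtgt
Cyp51, chr5:4104698-4104947, minus strand: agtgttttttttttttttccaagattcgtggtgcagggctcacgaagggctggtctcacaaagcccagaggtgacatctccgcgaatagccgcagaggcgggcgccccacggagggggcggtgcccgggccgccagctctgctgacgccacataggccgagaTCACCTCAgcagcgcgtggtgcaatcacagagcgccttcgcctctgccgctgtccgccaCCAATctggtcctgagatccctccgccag
Srebf2, chr15:82147019-82147268, plus strand: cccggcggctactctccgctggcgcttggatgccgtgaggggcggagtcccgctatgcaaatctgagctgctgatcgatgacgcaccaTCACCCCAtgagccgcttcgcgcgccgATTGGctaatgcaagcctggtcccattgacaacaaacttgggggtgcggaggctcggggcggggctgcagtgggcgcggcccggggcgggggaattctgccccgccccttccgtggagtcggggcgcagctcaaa

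The element TCACNCCAC was found in 1 of the 30 genes, Hmgcs1, and in 1.22% of all genes with a window and 1.21% of the tested ones. TCACCNCA, which overlaps it and was chosen after the windows had been read, was found in 5 of the 30 (Cyp51, Elovl5, Hmgcs1, Hsd17b7 and Srebf2), against 4.18% of all genes and 4.01% of tested genes. CCAAT was found in 21 of the 30, or 70%, against 37.5% of all genes and 41.1% of the tested genes with a window. CACGTG, the E-box that SREBP1 can also bind, was found in 7 of the 30, or 23.3%, against 6.86% of all genes and 10.2% of tested genes. A kappaB motif, the type of site that P65 binds, was found in 6 of the 30, or 20%, against 8.23% of all genes and 10.7% of tested genes.

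Among the genes with a window, CCAAT was present in 10 of the 10 that rose in P65KO libraries and in 11 of the other 20. Fdps and Sqle also rose but had no window, and the other 20 include Fads2 and Nr1h3, which were not tested. The kappaB motif was present in 0 of the 10 that rose and in 6 of the other 20, namely Ebp, Fads2, Insig2, Mvk, Pmvk and Srebf1. Over all tested genes with a window the shares were 41.1% for CCAAT and 10.7% for kappaB. Some genes have several annotated starts and were counted when any window matched. These are matches of letters in short windows and were not tested as binding sites.

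Library totals ran from 4513863 to 4624230 counts, so counts of a gene can be compared almost directly between libraries. Levels are given in CPM, counts out of 1000000 of the scaled library total, and 3 counts corresponded to 0.644 to 0.663 CPM. The whole-gene count of Rela was 875 and 806 in the WT and 820 and 909 in the P65KO libraries; the labels do not say which part of the gene is deleted, so this count does not check the labels, and directions below are for the libraries as labelled. Foxp3, the defining Treg transcription factor, had 1737 and 1724 counts in the WT and 1751 and 2385 in the P65KO libraries, and Cd4 had 4371 to 5313 in all 4. Of the 9 Treg and T cell markers listed, 4 fell (Ikzf2, Ctla4, Trac and Cd3g) and 1 rose (Il2ra), with a median log2 fold change of −0.23. Their summed level was 6627 and 6505 CPM in the WT and 5526 and 5909 CPM in the P65KO libraries.

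Markers of other cells also moved with the groups. The summed level of 21 myeloid and dendritic cell markers was 520 and 702 CPM in the WT and 4607 and 2324 CPM in the P65KO libraries, and 13 of the 15 tested rose, or 6 without either WT library; none of the 21 was at 0 in all libraries. Summed proliferation markers were 862 and 967 CPM in the WT and 802 and 593 CPM in the P65KO libraries, and 7 of 15 fell, a count of 1 and 0 without WT replicate 1 or 2 and of 12 and 3 without P65KO replicate 1 or 2. B cell markers summed to 36.0 and 41.1 CPM in the WT and 18.7 and 12.2 CPM in the P65KO libraries, with Pax5 and Ebf1 at 0 in every library, and Cd79b, the 1 tested, fell. Erythroid and platelet markers summed to 21.7 and 28.8 CPM in the WT and 112 and 193 CPM in the P65KO libraries, and all 4 tested rose.

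Stromal and endothelial markers summed to 177 and 142 CPM in the WT and 225 and 248 CPM in the P65KO libraries, and Pecam1, the 1 tested, rose. CD8 T cell markers summed to 25.4 and 25.8 CPM in the WT and 32.9 and 32.1 CPM in the P65KO libraries, and the 1 tested did not pass. NK and innate lymphoid markers summed to 44.1 and 58.1 CPM against 52.3 and 43.6 CPM, with Prf1 higher and Klrb1c lower among the 5 tested. Xist had 494 and 608 counts in the WT and 0 and 2 in the P65KO libraries, while the Y-linked Ddx3y had 0 and 0 in the WT and 302 and 404 in the P65KO libraries, so the sex of the mice and the genotype cannot be told apart. Of the 36 tested lipid genes only Ebp and Nsdhl are X-linked, and the 12 that rose are all autosomal. The part of sex, of other cells and of proliferation in the differences below was not tested.

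Of the 36 tested genes, 12 rose in P65KO libraries, 1 fell and 23 did not pass the test, which was edgeR's quasi-likelihood F test with Benjamini-Hochberg adjustment over all 11172 genes and a threshold of 0.05. Over all genes tested, 20.7% were called, 9.00% higher and 11.7% lower. The median log2 fold change of the 36 genes was 0.22, with 29 above 0 and 7 below, whereas the median of all genes was 0.0025. Both P65KO libraries lay above both WT libraries for 22 of the 36 genes, against 29.7% of all genes, and below them for 3, against 30.9%. The genes were chosen with earlier results of these data known, so these comparisons with all genes are descriptions and not independent support. RNA from bulk cells cannot tell a change in level per cell from a change in the share of cells that express a gene.

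**Figure D1:**
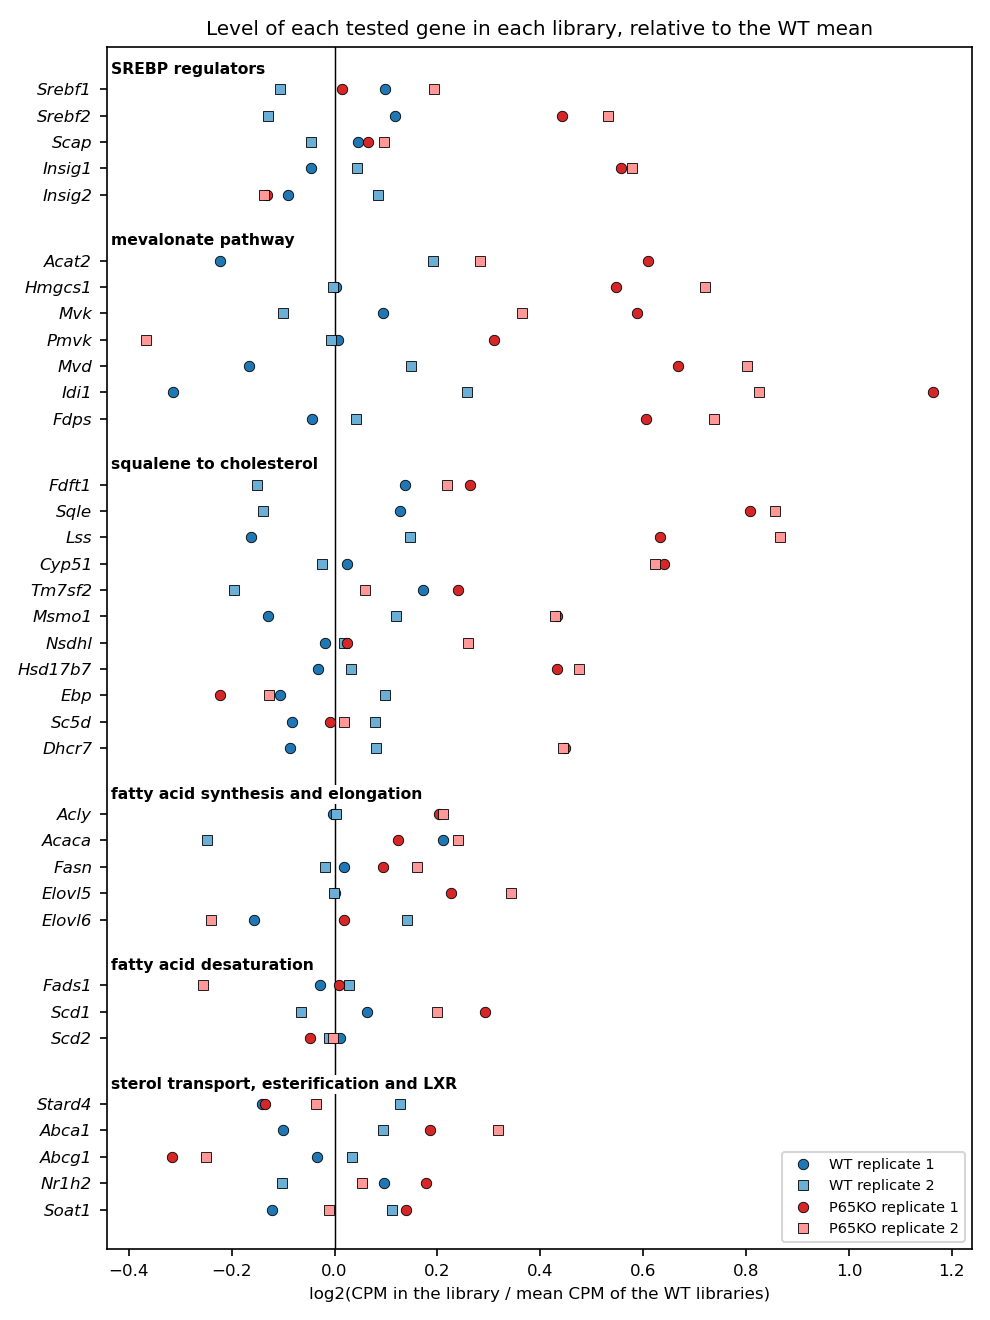
Level of each tested gene in each library as the log2 ratio of its CPM to the mean of the 2 WT libraries, on the horizontal axis, with genes on the vertical axis grouped by role; circles are replicate 1, squares replicate 2, blue WT and red P65KO. For the mevalonate enzymes Hmgcs1, Mvk, Mvd, Idi1 and Fdps both P65KO libraries lie to the right of both WT libraries, while all 4 libraries lie near 0 for Scd2 and Sc5d.

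Srebf2, the activator of the cholesterol pathway, and Insig1, its feedback inhibitor and itself a known SREBP target, rose in P65KO libraries. Srebf2 (Entrez 20788, chr15:82147269-82205379) had 1768 and 1502 counts in the WT and 2179 and 2306 in the P65KO libraries. Both P65KO libraries were above both WT libraries, and the mean level went from 353 ± 42.8 to 496 ± 21.3 CPM (SD, n = 2 each). This was a 1.402-fold difference, or 0.49 on the log2 scale (SE 0.10), with an adjusted p of 0.00448 by edgeR's quasi-likelihood test. Insig1 (Entrez 231070, chr5:28071412-28078662) had 259 and 278 counts in the WT and 387 and 391 in the P65KO libraries. The groups did not overlap, and Insig1 was 1.48-fold higher (log2 0.57, SE 0.10, adjusted p 0.00184, edgeR).

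The other 3 regulators did not pass. Srebf1, which encodes SREBP1, had 778 and 681 counts in the WT and 722 and 814 in the P65KO libraries. The groups overlapped, and the log2 fold change was 0.11 with an unadjusted 95% interval from −0.12 to 0.33. Scap, the sterol-sensing escort, had 505 and 478 counts against 504 and 513, which overlapped as counts and lay just apart in CPM, with a log2 fold change of 0.08 (interval −0.13 to 0.29). Insig2, the second INSIG protein, had 137 and 156 counts against 131 and 130, which was lower in both P65KO libraries but did not pass (log2 −0.13, interval −0.45 to 0.18).

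The mevalonate pathway builds isoprenoid units from acetyl-CoA, and 4 of its 7 enzymes rose in P65KO libraries, beside 9.00% of all genes tested. These 7 enzymes had a median log2 fold change of 0.64, with none below 0. Their summed level went from 150 ± 8.72 to 227 ± 5.43 CPM, a 1.52-fold difference. Hmgcs1 (Entrez 208715, chr13:119690351-119708260), which makes HMG-CoA, had 241 and 242 counts in the WT and 346 and 388 in the P65KO libraries. Its groups did not overlap, and it was 1.55-fold higher (log2 0.64, SE 0.11, adjusted p 0.00126, edgeR). The gene is the one whose promoter window, printed above, held TCACNCCAC.

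Idi1 (Entrez 319554, chr13:8885606-8892396), interconverts the 2 isoprenoid building blocks. It had 50 and 75 counts in the WT and 137 and 108 in the P65KO libraries, so the libraries of each group differed from each other but did not overlap with the other group. The fold was 2.003 (log2 1.002, interval 0.54 to 1.46, adjusted p 0.00498, edgeR). Mvd (Entrez 192156, chr8:122433596-122443422), which decarboxylates mevalonate diphosphate, had 86 and 108 counts against 151 and 165. That was a 1.67-fold difference (log2 0.74, SE 0.16, adjusted p 0.00589, edgeR), with the groups apart. Fdps (Entrez 110196, chr3:89093588-89101967), which makes farnesyl diphosphate, had 57 and 61 counts against 88 and 96 and was 1.59-fold higher (log2 0.67, SE 0.19, adjusted p 0.0230, edgeR).

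Of the remaining 3, Mvk, which phosphorylates mevalonate, had 93 and 82 counts against 129 and 110 and was 1.396-fold higher without passing (adjusted p 0.0632, edgeR). Acat2, the thiolase that makes acetoacetyl-CoA, had 64 and 86 counts against 112 and 89, also without passing (log2 0.45, interval 0.02 to 0.89, adjusted p 0.135, edgeR). In both, the P65KO libraries lay above the WT libraries. Pmvk, the second mevalonate kinase, had 70 and 70 counts against 85 and 53, with a log2 fold change of 0.01 and an interval from −0.50 to 0.52, too wide to exclude a change of the size seen in Srebf2.

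**Figure D2:**
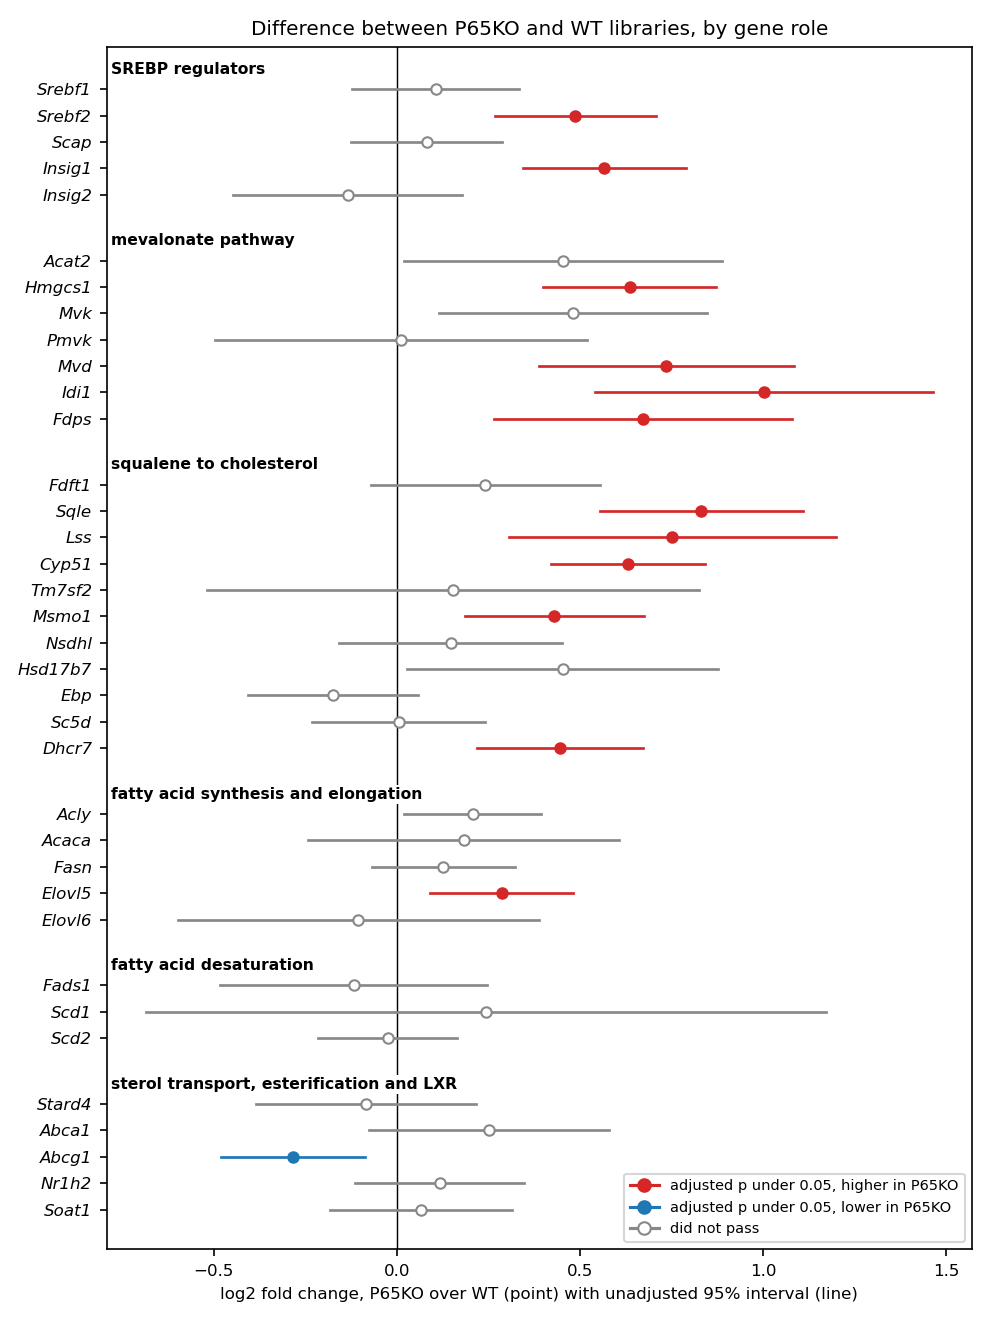
Log2 fold change of P65KO over WT for each tested gene, with genes on the vertical axis grouped by role; points are the edgeR estimates, lines their unadjusted 95% intervals, filled red points genes that rose, filled blue that fell and open grey points genes that did not pass. The estimates run from −0.28 for Abcg1 to 1.002 for Idi1, and all 7 mevalonate enzymes lie at or above 0.01.

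From squalene to cholesterol, 5 of 11 enzymes rose and none fell, beside 9.00% higher and 11.7% lower over all genes. These 11 enzymes had a median log2 fold change of 0.43, with 10 of the 11 above 0. Their summed level went from 488 ± 18.3 to 612 ± 10.4 CPM, a 1.25-fold difference. Sqle (Entrez 20775, chr15:59315092-59331193), the squalene epoxidase and a rate-limiting step, had 168 and 141 counts in the WT and 265 and 273 in the P65KO libraries. The groups were well apart, with a 1.78-fold difference (log2 0.83, SE 0.13, adjusted p 0.000564, edgeR). Cyp51 (Entrez 13121, chr5:4080674-4104697), the lanosterol demethylase, had 349 and 340 counts against 526 and 518. It was 1.55-fold higher (log2 0.63, SE 0.10, adjusted p 0.00057, edgeR), and its replicates were close in both groups.

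Lss (Entrez 16987, chr10:76531565-76557139), which closes the sterol rings to give lanosterol, had 48 and 60 counts in the WT and 82 and 96 in the P65KO libraries. It was 1.68-fold higher (log2 0.75, SE 0.21, adjusted p 0.0209, edgeR), with the groups apart. Msmo1 (Entrez 66234, chr8:64718123-64733578), a sterol methyl oxidase, had 248 and 297 counts against 360 and 358, a 1.35-fold difference (log2 0.43, SE 0.11, adjusted p 0.0168, edgeR). Here the WT libraries differed more from each other than the P65KO libraries did. Dhcr7 (Entrez 13360, chr7:143823167-143848410), which reduces 7-dehydrocholesterol to cholesterol, had 294 and 333 counts against 419 and 416 and was 1.36-fold higher (log2 0.45, SE 0.10, adjusted p 0.00922, edgeR).

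The other 6 enzymes of this stretch did not pass. Hsd17b7, a 3-ketosteroid reductase, had 56 and 59 counts against 76 and 78, which did not overlap (log2 0.45, interval 0.03 to 0.88, adjusted p 0.128, edgeR). Fdft1, the squalene synthase, had 161 and 133 counts against 173 and 167 (log2 0.24, interval −0.07 to 0.55). The demethylation enzyme Nsdhl had a log2 fold change of 0.15, the sterol reductase Tm7sf2 of 0.15 and the desaturase Sc5d of 0.00. Ebp, the sterol isomerase, was the only 1 of the 18 cholesterol enzymes below 0, with 412 and 479 counts against 374 and 398 (log2 −0.17, interval −0.41 to 0.06).

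Of the 11172 genes tested, 9.00% rose, 11.7% fell and 5606 had a log2 fold change above 0. Over all 18 cholesterol enzymes together, 9 rose, none fell and 17 had a log2 fold change above 0, with a median of 0.45. Their summed level was 619 and 657 CPM in the WT and 836 and 843 CPM in the P65KO libraries, a 1.32-fold difference of means. P65KO replicate 1 over replicate 2 gave a ratio of 0.992 in the summed cholesterol enzymes and 1.98 in the summed myeloid markers. The myeloid sum was also 5.67-fold higher in P65KO than in WT libraries. The part of other cells in the rise of these enzymes was not tested. With 1 library left out, 3 enzymes rose without WT replicate 1, 7 without WT replicate 2, 8 without P65KO replicate 1 and 5 without P65KO replicate 2, and 16 of the 18 were above 0 each time.

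**Figure D3:**
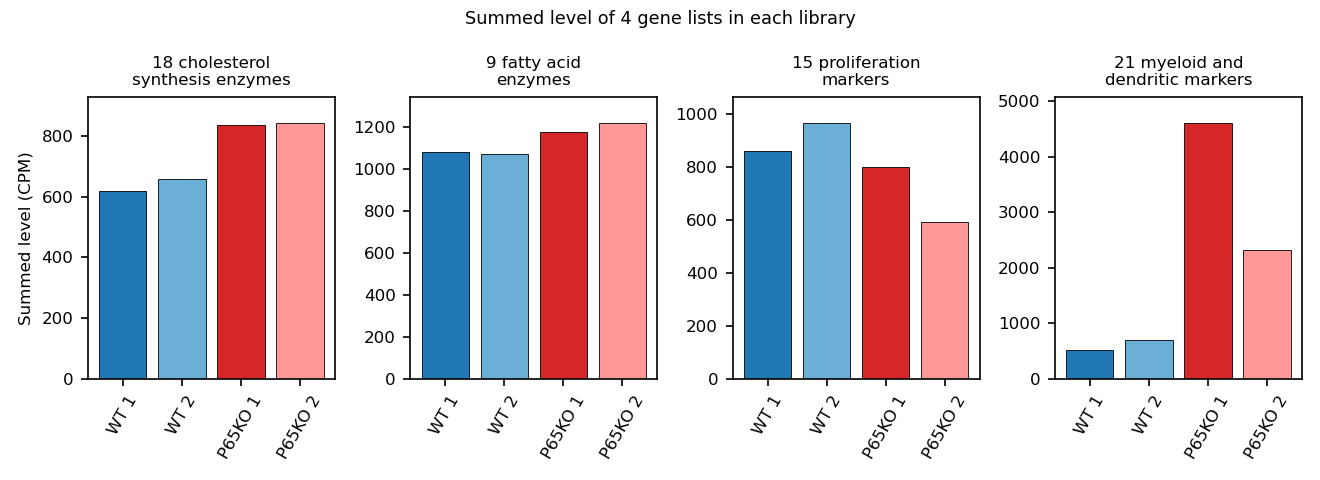
Summed CPM of 4 gene lists in each of the 4 libraries, as bars from 0 with a separate vertical scale for each list; blue bars are WT and red bars P65KO. In the P65KO libraries the 18 cholesterol enzymes reach 836 and 843 CPM and the 21 myeloid markers 4607 and 2324 CPM.

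Of the 8 tested enzymes of fatty acid synthesis, elongation and desaturation, 1 rose, or 12.5% against 9.00% of all genes, and none fell, with a median log2 fold change of 0.15. Elovl5 (Entrez 68801, chr9:77917365-77984519), which elongates polyunsaturated fatty acids, had 1270 and 1279 counts in the WT and 1461 and 1578 in the P65KO libraries. The groups did not overlap, but the difference was 1.22-fold (log2 0.29, SE 0.09, adjusted p 0.0398, edgeR), and the call was lost in 8 of 12 alternative settings. Acly, which makes cytosolic acetyl-CoA from citrate, had 1493 and 1511 counts against 1695 and 1696, apart but without passing (log2 0.21, interval 0.02 to 0.39, adjusted p 0.115, edgeR).

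Fasn, the fatty acid synthase, had 833 and 818 counts in the WT and 863 and 900 in the P65KO libraries (log2 0.13, interval −0.07 to 0.32). Acaca, the acetyl-CoA carboxylase, had 94 and 69 against 87 and 94, and Elovl6, the elongase of saturated chains, 54 and 67 against 60 and 50. Both overlapped between groups. The sum of the 9 fatty acid enzymes was 1083 and 1073 CPM in the WT and 1180 and 1221 CPM in the P65KO libraries, a 1.11-fold difference.

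None of the 3 tested desaturases passed, and their median log2 fold change was −0.03. Scd2, the main stearoyl-CoA desaturase transcript of these libraries, had 1127 and 1121 counts against 1065 and 1095 (log2 −0.03, interval −0.22 to 0.16). Scd1, its close paralogue, had 13 and 12 counts against 15 and 14, and Fads1, the delta-5 desaturase, had 104 and 109 against 105 and 87. Fads2 had 1 count in each WT library and 1 and 0 in the P65KO libraries, under the floor of 3. Reads shared between Scd1 and Scd2 could be assigned to either, so the split between them is uncertain.

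Of the genes that move, store or sense sterol, 1 of 5 tested fell and none rose, beside 11.7% lower and 9.00% higher over all genes. Abcg1 (Entrez 11307, chr17:31057694-31117984), which exports cholesterol and is a known LXR target, had 924 and 977 counts in the WT and 748 and 780 in the P65KO libraries. The groups did not overlap, and Abcg1 was 1.22-fold lower (log2 −0.28, SE 0.09, adjusted p 0.0434, edgeR), but the call was lost in 7 of 12 alternative settings. Abca1, the other LXR-driven exporter, had 110 and 127 counts against 132 and 144, in the opposite direction and without passing (log2 0.25, interval −0.08 to 0.58). The LXR beta gene Nr1h2 had 456 and 401 counts against 475 and 434, the sterol carrier Stard4 168 and 204 against 166 and 177, and the acyltransferase Soat1, which stores cholesterol as esters, 314 and 372 against 370 and 332. All 3 overlapped between groups. Nr1h3, the LXR alpha gene, had 6 and 4 counts against 15 and 6 and was not tested.

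Levels per gene length were compared on the deposited log2 RPKM scale. In WT libraries the mean ran from −2.20 for Fads2 to 6.65 for Elovl5, with Srebf2 at 6.29 and Acly at 6.22 next; these latter 2 do not differ beyond the replicate SD of 0.19 for Srebf2. Srebf2 stood above Srebf1 (5.21), Insig1 (4.48) above Insig2 (3.67), and Scd2 (5.50) above Scd1 (−0.76). Among cholesterol enzymes Ebp was highest (5.81) and Hsd17b7 lowest (1.47). Idi1 (2.24) and Lss (1.94) were also low, and Sqle (3.62) and Hmgcs1 (4.01) lay between. In P65KO libraries Elovl5 (6.89) and Srebf2 (6.73) were again the highest.

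**Figure D4:**
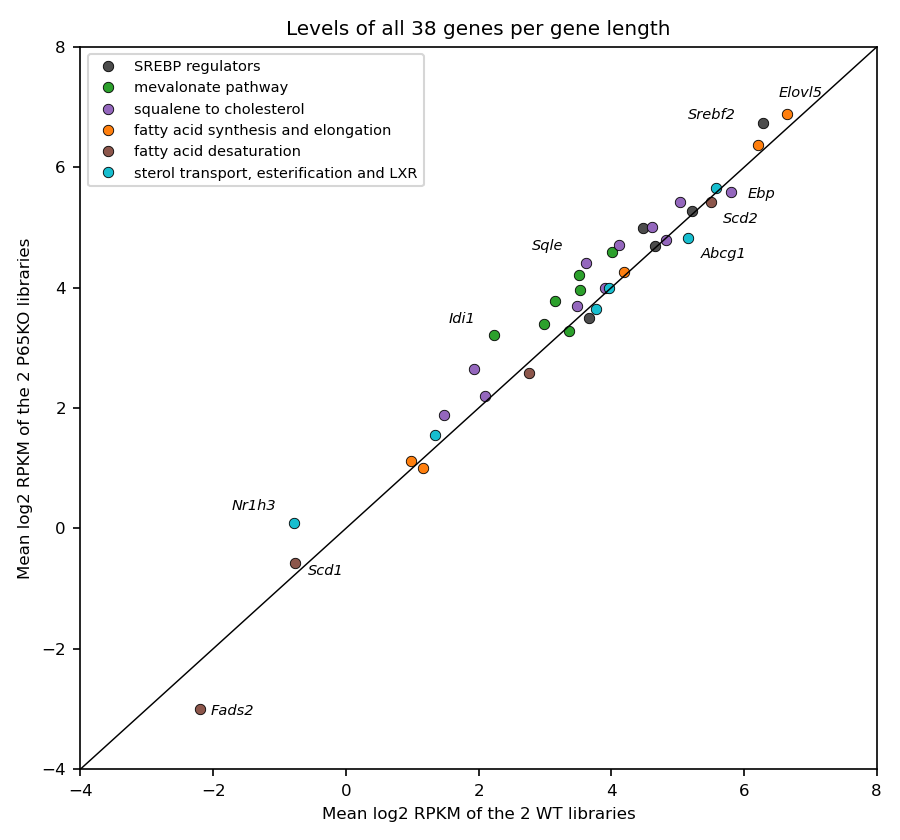
Mean log2 RPKM of the 2 P65KO libraries against that of the 2 WT libraries for all 38 genes, coloured by role; the line marks equal levels. Elovl5 and Srebf2 are at the top right, Fads2 at the lower left, and Idi1 and Sqle lie above the line.

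Other genes of lipid metabolism were counted from lists of the same pathways, beside the background of 20.7% called. Of 20 genes of SREBP processing and sterol-regulated degradation, 1 rose and 2 fell. Sec24a, a COPII coat gene, had 241 and 230 counts against 319 and 304 (log2 0.44, adjusted p 0.0123, edgeR), and Aup1, which acts in degradation at the endoplasmic reticulum, had 937 and 1008 against 778 and 736 (log2 −0.33, adjusted p 0.0229, edgeR). Sec24d, a paralogue of Sec24a, moved the other way, from 109 and 121 to 80 and 69 counts (log2 −0.59, adjusted p 0.0281, edgeR). Sec24a was lost without either WT library or P65KO replicate 1, Sec24d without either WT library or P65KO replicate 2, and Aup1 with any 1 library left out, with adjusted p from 0.0719 to 0.213. Of 15 genes of the isoprenoid branch, only Fntb, the farnesyltransferase beta subunit, passed, with 89 and 84 counts against 132 and 143 (log2 0.70, adjusted p 0.00693, edgeR); it too was lost without WT replicate 1 (0.0739) or WT replicate 2 (0.0910).

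LXR partners and textbook targets gave 3 higher and 1 lower of 10 tested. Arl4c rose from 1470 and 1376 counts to 2408 and 2640 (log2 0.86, adjusted p 4.2e-05, edgeR), and Smpdl3a fell from 2161 and 2157 to 1182 and 1123 (log2 −0.87, adjusted p 2.12e-05, edgeR). Both are LXR-induced genes in macrophages, and they moved in opposite directions here.

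Genes that supply and activate fatty acids gave 3 higher and 4 lower of 19. Acss2, which makes acetyl-CoA from acetate, rose from 271 and 290 to 469 and 508 counts (log2 0.83, adjusted p 0.000115, edgeR). Hacd3, a dehydratase of the elongation cycle, fell from 1095 and 1277 to 576 and 550 (log2 −1.04, adjusted p 1.38e-05, edgeR). These held in all 12 alternatives tried.

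Sterol transport and oxysterol genes gave 5 higher and 5 lower of 25. Npc2, which carries cholesterol out of lysosomes, rose from 2375 and 2637 counts to 3953 and 3852 (log2 0.67, adjusted p 0.000229, edgeR). Gramd1b, a plasma membrane to endoplasmic reticulum cholesterol carrier, fell from 266 and 213 to 90 and 111 counts (log2 −1.22, adjusted p 0.000186, edgeR). Macrophages also express Npc2 strongly, and the myeloid markers above were higher in the same P65KO libraries; their part was not tested.

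Triglyceride and phospholipid synthesis gave 1 higher and 2 lower of 18, fatty acid oxidation 2 and 2 of 20, and AMPK and mTORC1 inputs to SREBP 2 and 0 of 15. Among them Myc, a growth regulator, rose from 442 and 477 to 602 and 705 counts (log2 0.54, adjusted p 0.00306, edgeR) and was lost without WT replicate 1 (0.0808). Lpin2, a phosphatidate phosphatase, fell from 161 and 167 to 106 and 104 counts (log2 −0.61, adjusted p 0.00892, edgeR) and was lost without WT replicate 1 (0.0824) or WT replicate 2 (0.0932). Dgat2, which makes triglyceride, had 30 and 37 counts against 14 and 14 (log2 −1.22, adjusted p 0.0279, edgeR) and was lost with any 1 of the 4 libraries left out. The median log2 fold changes of these 3 lists were −0.12, −0.08 and 0.06.

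Of the 13 calls among the lipid genes, those of Insig1, Hmgcs1, Sqle and Cyp51 held in all 12 alternative settings, with highest adjusted p of 0.0463, 0.0418, 0.0363 and 0.0247 in that order. With 1 library left out, 5 rose without WT replicate 1, 8 without WT replicate 2, 10 without P65KO replicate 1 and 7 without P65KO replicate 2, and none fell. The remaining 9 all lost the threshold when no filter on low counts was used. Mvd, Fdps, Lss, Msmo1, Dhcr7, Elovl5 and Abcg1 also lost it with DESeq2, and Elovl5 with library totals only. None of the 9 changed sign in any setting. Srebf2 was lost without WT replicate 2 (adjusted p 0.0742), and Mvd (0.107) and Idi1 (0.123) without WT replicate 1. Dhcr7 was lost without WT replicate 1 (0.106) or P65KO replicate 2 (0.0501), and Msmo1 without WT replicate 1 (0.159) or either P65KO library (0.0742 and 0.0783). Fdps and Lss were lost without either WT library or P65KO replicate 2, with adjusted p from 0.0885 to 0.202. Elovl5 and Abcg1 were lost with any library left out, and with replicate number as a block (0.0938 and 0.0992).

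**Figure D5:**
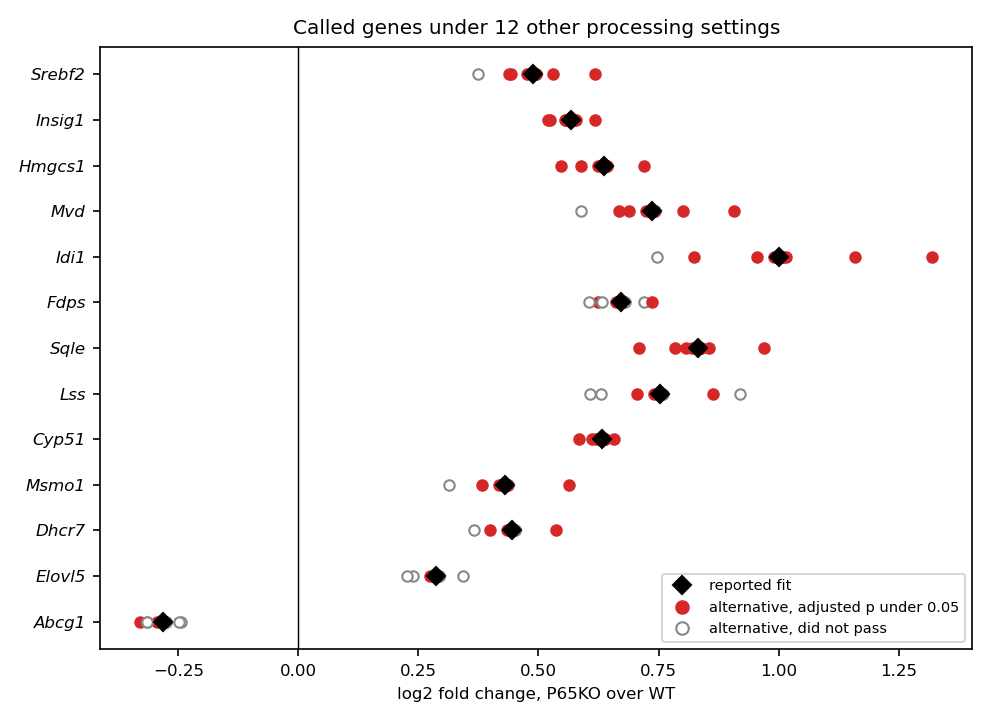
Log2 fold change of P65KO over WT for the 13 genes that were called, in the reported fit (black diamonds) and under 12 alternatives (filled red circles passed the threshold, open grey circles did not). All estimates of the 12 higher genes stay above 0 and those of Abcg1 below 0.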

How the data were processed

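Treg cell RNA was sequenced from 2 WT and 2 P65KO samples, grouped and numbered by their titles. The labels' protocols name an RNeasy Plus Mini kit for RNA and a TruSeq RNA kit for libraries. Subread, featureCounts, limma and build GRCm38 (mm10) are named by the submitters' processing notes. What limma was used for, tool versions, annotation and strand setting were not given in the sources used here. For each Entrez gene the authors deposited a raw count and a log2 RPKM value; the latter equalled the log2 of the count plus 0.5 over gene length and library total, with a whole-number length within 0.01 for 27178 of 27179 genes. Some 0.453% to 0.562% of counts fell on 571 genes that carry no symbol, which stayed in the fit.

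Low counts were removed with filterByExpr, libraries were scaled by TMM, and 11172 genes were tested two-sided by quasi-likelihood F tests (edgeR 4.0.16, R 4.3.3), calling genes at a Benjamini-Hochberg adjusted p under 0.05. SE is the log2 fold change divided by the square root of F, and the 95% intervals are unadjusted. CPM used TMM-scaled totals. Intervals and the floor of 3 counts cover counting error or the spread of these libraries only. Alternatives were DESeq2 1.42.0, limma-voom (limma 3.58.1), other scalings and filters, a replicate block, each library left out, and no X and Y genes; the script was tested on simulated data. Replicates differed beyond sampling noise (chi-square over degrees of freedom of 3.49 and 3.97 for WT and P65KO), with correlations of log2 CPM of 0.988 and 0.982 within groups and at most 0.936 between. Named genes are all 38 lipid genes, and of each other list at most 4 with the smallest adjusted p among those called. The members and lists were chosen with earlier results of these data known. Reads of overlapping or antisense genes cannot be separated, since the strand setting is unknown. Coordinates and promoter windows came from RefSeq GRCm38.p6, the build of the files.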

Additional observations from a re-analysis of the deposited data

How the results depend on the processing

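The main counts were 2310 genes called, 1005 higher and 1305 lower, and 12 lipid genes rose and 1 fell. Without a filter on low counts, 771 genes were called (246 higher, 525 lower), 4 lipid genes rose and 0 fell, 3 of the 18 cholesterol enzymes rose, and the role groups had 1 call (SREBP regulators), 1 (mevalonate), 2 (squalene to cholesterol), 0 (fatty acid synthesis) and 0 (transport); the other lists had 0 (SREBP processing), 2 (LXR), 0 (isoprenoid), 3 (fatty acid supply), 4 (sterol transport), 1 (triglyceride), 0 (oxidation) and 0 (AMPK and mTORC1), and 0 proliferation markers were called. More genes were tested there (16183). With DESeq2, 1318 were called (587 higher, 731 lower), 6 lipid genes rose and 0 fell, 4 of the 18 enzymes rose, and the calls were 2 (mevalonate), 2 (squalene to cholesterol), 0 (fatty acid synthesis), 0 (transport), 0 (SREBP processing), 0 (isoprenoid), 3 (fatty acid supply), 0 (triglyceride), 0 (oxidation) and 1 (AMPK and mTORC1), with 3 proliferation markers. With library totals only, 0 fatty acid synthesis genes were called, and median log2 values were 0.18 (all lipid genes), 0.41 (18 enzymes), 0.38 (squalene to cholesterol), 0.13 (fatty acid synthesis) and −0.073 (desaturation); the desaturation median was −0.071 with no filter and −0.083 with the stricter filter. The cause of these shifts was not tested.

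With 1 library left out, genes called ranged from 916 to 1676, higher from 331 to 680 and lower from 585 to 1053. Lipid genes that rose ranged from 5 to 10, those that fell from 0 to 0, the 18 enzymes from 3 to 8, SREBP regulators from 1 to 2, mevalonate from 1 to 4, squalene to cholesterol from 2 to 4, fatty acid synthesis and transport from 0 to 0. In the other lists the ranges were 0 to 1 (SREBP processing), 2 to 4 (LXR), 0 to 1 (isoprenoid), 2 to 5 (fatty acid supply), 3 to 8 (sterol transport), 0 to 2 (triglyceride), 0 to 2 (oxidation), 0 to 2 (AMPK and mTORC1), 6 to 15 (myeloid markers) and 0 to 12 (proliferation markers). Medians ranged from 0.19 to 0.28 (all lipid genes), 0.41 to 0.55 (18 enzymes), 0.040 to 0.21 (SREBP regulators), 0.59 to 0.72 (mevalonate), 0.37 to 0.49 (squalene to cholesterol), 0.11 to 0.21 (fatty acid synthesis), −0.031 to 0.0089 (desaturation) and −0.045 to 0.14 (transport).

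Replicate numbers are not stated to mark shared animals, and same-numbered libraries deviated with a correlation of −0.137. With the replicate block, 2319 genes were called, 11 lipid genes rose and 0 fell, with 0 calls in fatty acid synthesis and 0 in transport. With the numbers crossed, an alternative chosen after seeing the data, 2973 genes were called, 14 lipid genes rose and 1 fell.

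Only uncalled genes changed sign. Pmvk was −0.035 with totals only, −0.027 with limma-voom and −0.0090 with the replicate block, and Sc5d −0.042 with totals only and −0.0065 with the stricter filter. With 1 library left out, Pmvk ranged from −0.37 to 0.31, Tm7sf2 from −0.016 to 0.35, Sc5d from −0.072 to 0.092, Acaca from −0.024 to 0.43, Elovl6 from −0.25 to 0.056, Fads1 from −0.26 to 0.0089, Stard4 from −0.21 to 0.060 and Soat1 from −0.045 to 0.19. At these totals, genes such as Tm7sf2, with 25 to 33 counts, have intervals too wide to show a change of the size seen in Cyp51.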
